A study of Mus musculus with 2 samples.

Results

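The cytosolic ribosomal protein genes were read on both arrays of the series as every gene whose symbol starts with *Rpl* or *Rps* and a digit, or is *Rplp0*, *Rplp1*, *Rplp2* or *Rpsa*, leaving out the S6 kinases and symbols that mark a pseudogene. The rule found 88 genes among 20655 named genes, and it used symbols only and no measured value. They were read by 178 probes, of which 176 were well above background on both arrays, and all 88 genes were measured with vehicle and with IR-61. Of these genes 46 encode proteins of the large subunit and 31 proteins of the small subunit, together called canonical here. The other 11 are paralogs, retrocopies and 1 gene that shares only the symbol, *Rps19bp1*, which encodes a protein that binds Rps19. *Fau*, which encodes a ribosomal protein fused to a ubiquitin-like protein, and *Rack1* are ribosomal genes that the symbols do not catch, and they are given beside the members.

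The 2 samples were RAW264.7 cells, a macrophage line made from a BALB/c male with Abelson murine leukemia virus, cultured for 24 h with vehicle control or with IR-61, a near-infrared heptamethine cyanine dye that collects in mitochondria. The dose of 10 μM comes from the study's text. Each condition was 1 culture of 1 line on 1 single-colour Agilent array, so the spread between cultures was not measured and no test was run. An effect of IR-61 and any other difference between these 2 cultures or arrays cannot be told apart. Of 10 macrophage markers 9 were named and well above background on both arrays, with signals from 1002 to 101199 with vehicle. Scaled as below, they differed between the arrays by −0.83 for *Spi1* to 1.03 for *Adgre1*, with a median of −0.18 and 6 of 9 below 0, and the part of this in the results was not tested. The epithelial marker *Epcam* and the adipocyte marker *Adipoq* did not stand well above background with vehicle or with IR-61. The fibroblast collagen *Col1a1* was bright, at 27148 with vehicle and 58670 with IR-61, as was *Col1a2*, at 15029 and 22576, and their part in the results below was not tested. The other 5 of 7 measured markers of other cells had vehicle signals from 18.2 to 684.

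A ribosome is made of a small subunit, which holds the mRNA and checks each codon against its tRNA, and a large subunit, which joins the amino acids and releases the growing chain through an exit tunnel. Their proteins are needed in near-equal numbers, and cells keep them so by translating their mRNAs together and by degrading unassembled proteins. The mRNAs begin with a C and a run of pyrimidines, the 5′ terminal oligopyrimidine or TOP motif, through which the kinase mTOR controls how much of them is translated. An array of total RNA reads mRNA level and not this translation.

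To show what these genes have in common at their starts, the 30 bases from 10 before to 20 from the annotated start on are given for members that the results turn on, from RefSeq on GRCm38.p6, in the direction of the gene. Capitals mark the stretch of a C and at least 4 further pyrimidines that lies nearest to the start, and a sequence without capitals has none in these bases. The genes are large subunit *Rpl14* and *Rpl7a*, small subunit *Rps6*, *Rps18* and *Rps7*, *Rpl36a*, the canonical gene that was highest with IR-61, and the paralogs *Rpl39l* and *Rpl7l1*.
Rpl14, chr9:120571507-120571536, plus strand: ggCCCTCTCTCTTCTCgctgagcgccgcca
Rpl7a, chr2:26910797-26910826, plus strand: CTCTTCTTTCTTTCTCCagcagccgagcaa
Rps6, chr4:86857348-86857377, minus strand: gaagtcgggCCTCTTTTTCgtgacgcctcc
Rps18, chr17:33955646-33955675, minus strand: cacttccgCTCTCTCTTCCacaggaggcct
Rps7, chr12:28635934-28635963, minus strand: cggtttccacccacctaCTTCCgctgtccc
Rpl36a, chrX:134585644-134585673, plus strand: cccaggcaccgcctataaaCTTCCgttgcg
Rpl39l, chr16:10170218-10170247, plus strand: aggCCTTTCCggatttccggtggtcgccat
Rpl7l1, chr17:46782637-46782666, minus strand: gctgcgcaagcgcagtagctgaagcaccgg
Long runs cover the start of *Rpl14*, *Rpl7a*, *Rps6* and *Rps18*, while the runs of *Rps7* and *Rpl36a* are short and lie after it and *Rpl7l1* has none. The promoter table held 79 windows for 67 of the 88 members. A C within 1 base of the annotated start, followed by at least 4 pyrimidines, was found in 26.6% of these windows. This C may lie inside a longer run that begins earlier, as in *Rpl14* and *Rpl7a*. The share was 6.32% of all 32851 windows of the table. The search planned at first was wider, for such a run within 20 bases of the start. It found a run in 69.6% of the members' windows and in 46.7% of all windows. Searched on both strands over the whole 300 bases, CCGGAAG, the core of sites bound by ETS factors, was in 34.2% of the members' windows and in 8.86% of all windows. Read on the other strand it begins with pyrimidines and can overlap a TOP run. These matches describe letters at annotated starts, and a start placed some bases off hides a run. The 21 members with a run at the start had a median difference between IR-61 and vehicle of −0.13 on the scale explained below, and the 46 without had −0.07.

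With IR-61, most members were slightly low relative to the rest of the array, how many of them depended on the normalization, and none differed by 2-fold. Values are log2 signals less the 75th percentile of their array, and each difference was taken on that scale as the IR-61 value minus the vehicle value. The 88 members had a median difference of −0.10, with the middle 50% of them between −0.21 and −0.01. Over all 16888 genes measured on both arrays the median was 0.10. Among the members 67 lay below 0, where 38.8% of all genes did, and 83 lay below the median of all genes, under which 50% of genes lie by definition. That count was 73 with loess, 62 with the log2 values the authors deposited, 61 with quantile normalization, 57 with normexp background correction, 76 with the mean over probes and 62 with the dimmest probe of each gene, the last chosen after seeing the data. The 5 members above that median were *Rpl39l*, *Rps4l*, *Rpl36a*, *Rps27l* and *Rps18*. No member was 2-fold lower or 2-fold higher, against 1.39% and 1.99% of all genes. The IR-61 array was brighter as a whole, by 0.49 at the 75th percentile, and before scaling 87 of the 88 members had a higher signal with IR-61, the exception being *Rpl7l1*. The members' median without scaling was 0.39 and that of all genes 0.59, so the sign of the members' own value followed the scaling. The distance of −0.20 between members and all genes cannot change with this scaling, which subtracts 1 value per array. Among the settings that can change it, loess gave −0.10, and quantile normalization, the deposited log2 values and normexp each gave −0.06.

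A limit of 1.2-fold was used to count small differences, because 2 bright single spots of equal RNA are expected to differ with an SD of only 0.094 on the log2 scale, from probes printed 10 times. By this limit 11 members, or 12.5%, were lower with IR-61, against 17.5% of all genes, and 3 members, or 3.41%, were higher, against 31.8% of all genes. The remaining 74 stayed within 1.2-fold. With scaling by the median, 24 members were lower and 1 higher, against 22.9% and 24.2% of all genes. With quantile normalization 6 were lower and 3 higher, against 20.8% and 25.8%. Without scaling 1 was lower and 69 were higher, against 3.06% and 80.2%. The members thus held a smaller share of higher genes than the array under the 3 settings with a scaling, while their number of lower genes moved with the scaling. Very bright genes outside the members held few higher genes too. At a scaled log2 signal of 6 or more, as the mean of both arrays, 0% of members and 1.69% of other genes were higher. The shares were 4% and 17.8% between 5 and 6, and 0% and 26.4% between 4 and 5.

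The canonical genes lay close together. The SD of the differences across the 77 canonical genes was 0.14, against 0.44 across all genes, but bright genes as such lay closer together, and in the brightest range described below the SD was 0.10 for members and 0.15 for other genes. Of the canonical genes 67 lay within 2 expected SDs between spots of their own median of −0.11. Large and small subunit overlapped almost wholly. The large subunit had a median of −0.11 and ranged from −0.38 for *Rpl14* to 0.28 for *Rpl36a*, and the small subunit had a median of −0.10 and ranged from −0.48 for *Rps7* to 0.16 for *Rps18*. *Fau* had a difference of −0.27 and *Rack1*, a scaffold on the small subunit, of −0.02, both inside the range of the canonical genes.

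**Figure D1:**
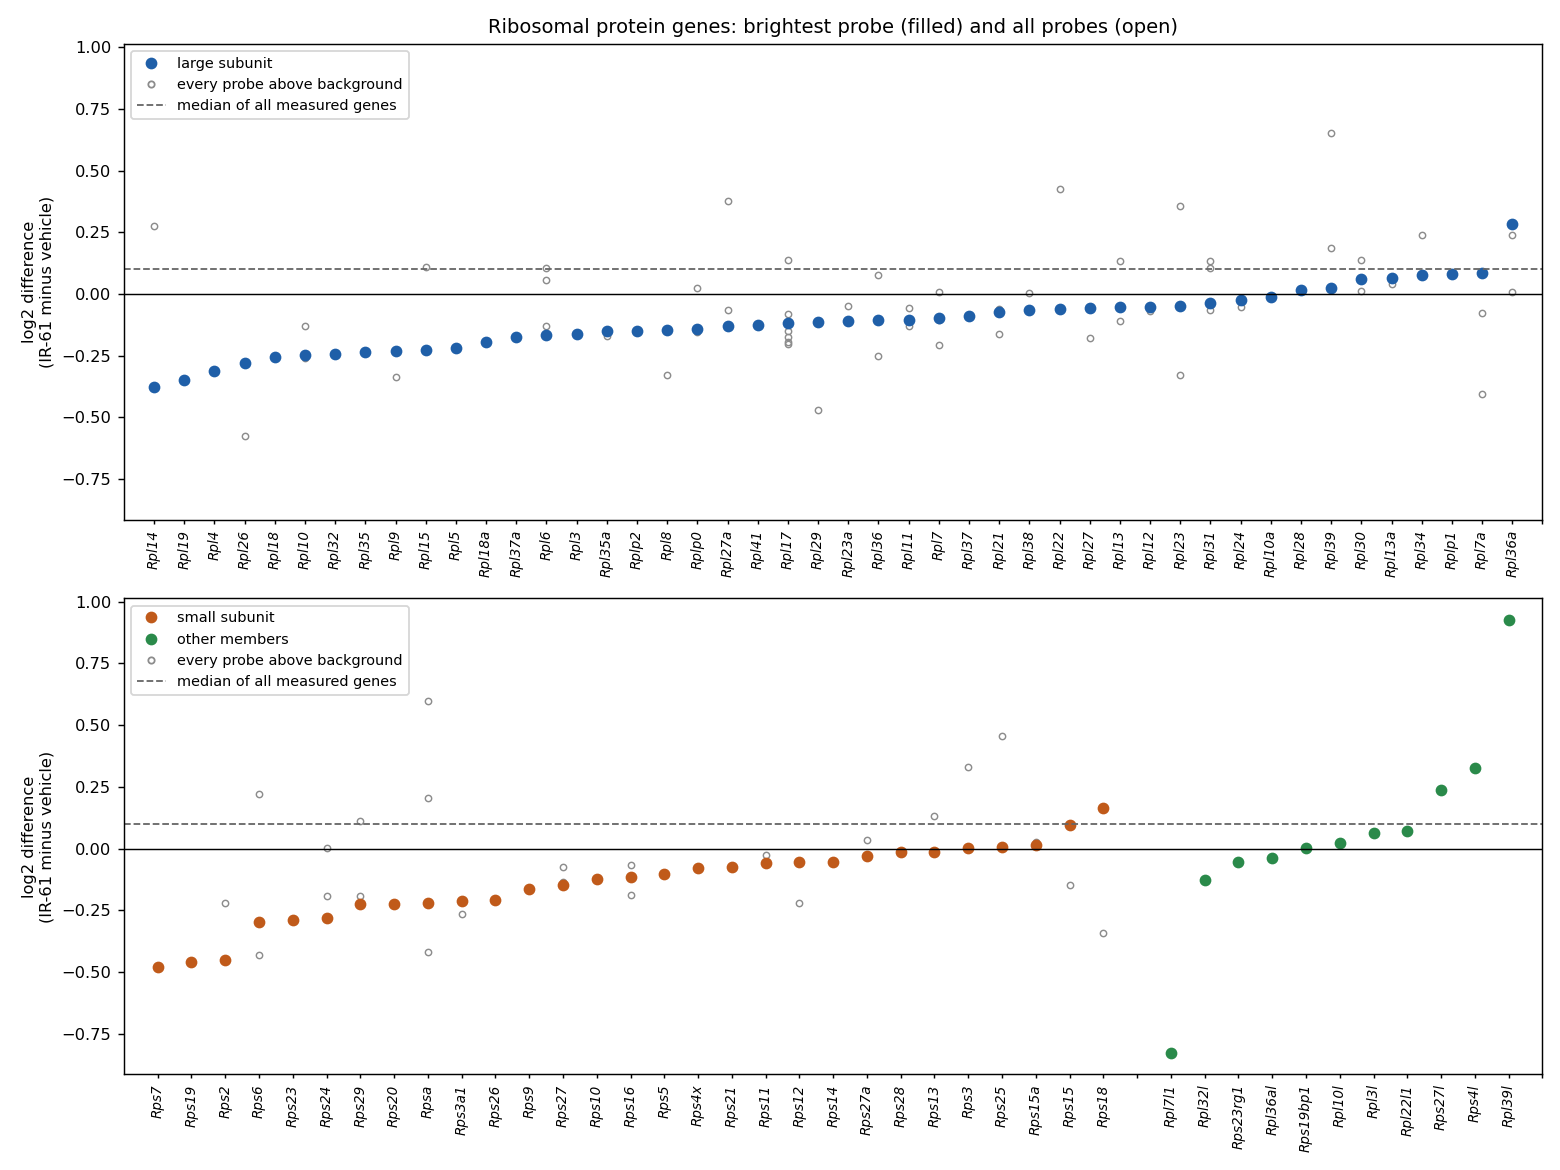
Log2 difference (IR-61 minus vehicle, after subtraction of the 75th percentile of each array) of 86 of the 88 members, sorted within large subunit, small subunit and other members. Filled points are the brightest probe of a gene, open points all its probes well above background, and the dashed line is the median of all measured genes, 0.10. Most filled points lie between −0.25 and 0.10, with *Rpl7l1* and *Rpl39l* far outside.

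The members' brightness has to be read beside this shift, since other very bright genes had it too. The signals of the canonical genes ran from 10224 to 180358 with vehicle and from 10417 to 212929 with IR-61, with medians of 92538 and 123818, while the medians of all measured genes were 549 and 761. No spot was saturated. A scaled log2 signal of 6 or more, as the mean of both arrays, was reached by 47 members and by 118 other genes. In that range the median difference was −0.11 for members and −0.12 for the other genes, and 47 of 47 members and 89.8% of the other genes lay below the median of all genes. Between 5 and 6 the median was −0.07 for 25 members and 0.03 for 314 other genes, and 24 of the 25 members lay below the median of all genes, as did 60.5% of the others. Between 4 and 5 it was 0.04 for 8 members and 0.09 for 625 other genes. Members and other genes thus had nearly the same median in the brightest range, and in the other ranges with more than 2 members the members' median was the lower one. With a loess fit, which removes a trend of the difference with brightness, the members' median was −0.07 and that of all genes 0.04. With quantile normalization these values were −0.02 and 0.04, and with normexp background correction they were −0.09 and −0.03.

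**Figure D2:**
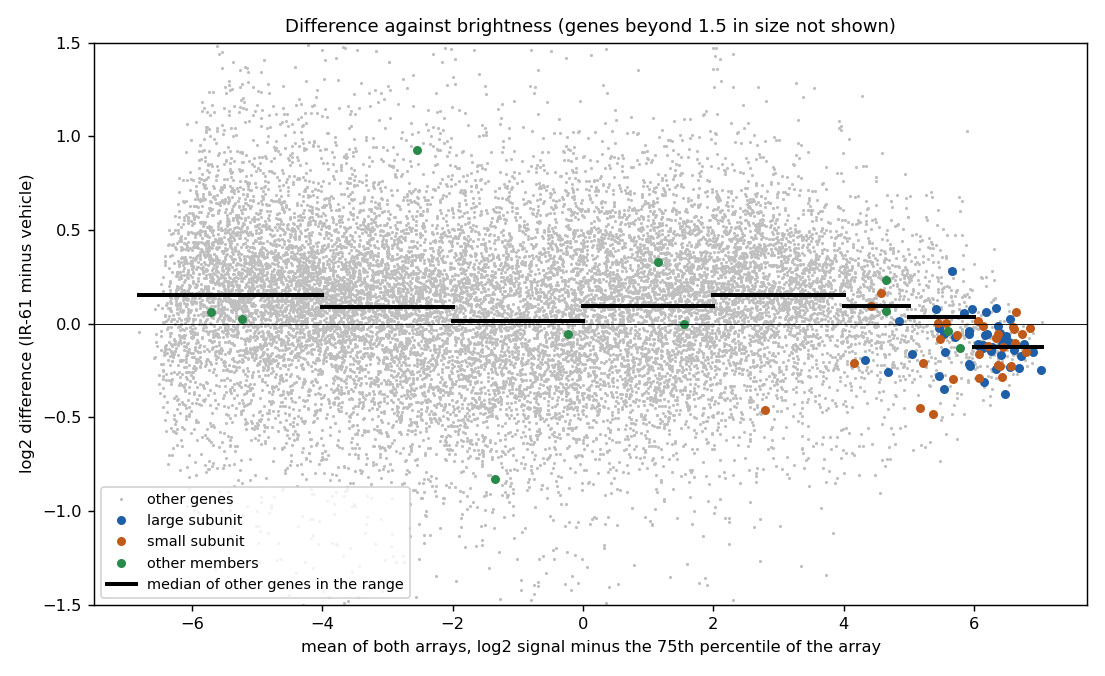
Log2 difference (IR-61 minus vehicle) of every measured gene against its mean scaled log2 signal, with members in colour, other genes in grey, and black bars for the median of the other genes in 8 ranges of signal. Bars lie between 0.01 and 0.16 up to a scaled signal of 6 and at −0.12 above it, where 47 members lie.

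The lowest canonical genes were of the small subunit. *Rps7*, a protein of the small subunit that also binds MDM2, had a signal of 61749 with vehicle and 62067 with IR-61, or 5.61 and 5.13 after scaling. *Rps19*, mutated in Diamond-Blackfan anaemia, had 10224 and 10417, or 3.02 and 2.56. *Rps2*, which lines the entry of the mRNA channel, had 53109 and 54479, or 5.39 and 4.94. Each of these signals was thus almost the same on both arrays, and the scaled values were lower by 0.48, 0.46 and 0.45, or 1.40-fold, 1.38-fold and 1.37-fold. Without scaling the 3 differences were 0.01, 0.03 and 0.04. Differences between −0.38 and −0.28 followed for 7 genes, which complete the 10 canonical genes lower by 1.2-fold or more. *Rpl14*, whose long TOP run is shown above, had a signal of 128231 with vehicle and 138550 with IR-61, and *Rpl19*, at the rim of the exit tunnel, 66438 and 73223. *Rpl4*, a wall of that tunnel, had 99833 and 112940, and *Rps6*, the substrate of the S6 kinases, 71319.8 and 81495. *Rps23*, at the decoding centre, had 93917 and 107794. All 5 signals were higher with IR-61 by less than the 0.49 between the arrays, which put them at −0.38, −0.35, −0.31, −0.30 and −0.29 after scaling, and *Rps24* and *Rpl26* both stood at −0.28. Just inside the limit were *Rpl18* with −0.26 and *Rpl10* with −0.25. Of these 10 genes only the 8 lowest were followed one by one over the settings with a scaling. Among these 8, *Rps7* stayed between −0.56 and −0.45 and *Rps19* between −0.55 and −0.46, whereas 5 others passed inside 1.2-fold under some. With the deposited log2 values the 5 members lower by 1.2-fold or more were *Rps7*, *Rps19*, *Rps2*, *Rpl19* and *Rpl7l1*. *Rps24* and *Rpl26* were thus inside the limit there. *Rpl14* came to −0.05 and *Rps6* to −0.17 with the mean over their probes, and *Rps2* to −0.20 with normexp background correction. With quantile normalization *Rpl14* had −0.24, *Rps6* −0.26, *Rpl4* −0.22 and *Rps23* −0.21, all within 1.2-fold, while *Rpl4* had −0.55 with normexp.

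*Rpl36a*, an X-linked large subunit gene, was the 1 canonical gene higher by 1.2-fold or more. Its signal was 57955 with vehicle and 98997 with IR-61, or 5.52 and 5.80 after scaling, a difference of 0.28 or 1.22-fold, and over the settings with a scaling, each by its brightest probe or the mean over probes, its value ran from 0.18 to 0.38. Its other 2 probes had differences of 0.24 and 0.01, the latter the dimmest. *Rps18*, a small subunit protein, was next with 0.16, from signals of 28325 and 44524, but its second probe had −0.34, and with the mean over both probes the direction turned, at −0.09. *Rps15*, *Rpl7a*, *Rplp1*, *Rpl34* and *Rpl13a* had differences between 0.07 and 0.10, all within 1.2-fold and below the median of all genes, and each was negative under at least 1 alternative setting.

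Read by place in the ribosome, a grouping made after the values were seen, the genes of 1 place were far apart in some cases and close in others. The values are those of the brightest probe. From the spread between spots alone, the differences of 2 such bright genes are expected to differ with an SD of 0.13. In the stalk that recruits elongation factors, *Rplp0* and *Rplp2* had differences of −0.14 and −0.15 and *Rplp1* of 0.08. The partners *Rpl5* and *Rpl11*, which bind the smallest RNA of the large subunit, had −0.22 and −0.11. Of the proteins that reach into the exit tunnel, *Rpl4* had −0.31, *Rpl17* −0.12 and *Rpl39* 0.03. At the rim of the tunnel *Rpl19*, *Rpl26*, *Rpl35*, *Rpl23a* and *Rpl31* ran from −0.35 to −0.04. At the entry of the mRNA channel *Rps2* had −0.45 and *Rps3*, its neighbour, 0.00, and at the decoding centre *Rps23* had −0.29 and *Rps15* 0.10. The dimmer probes of *Rps2*, *Rps3* and *Rps15* had −0.22, 0.33 and −0.15. Those of *Rplp0* had 0.03 and −0.15, and those of *Rpl39* 0.18 and 0.65. The contrasts at the stalk, the tunnel, the mRNA entry and the decoding centre thus depend on the probe. With 63 of 77 canonical genes below 0, places of 2 to 5 genes with negative values only, such as the rim, are no departure from the rest.

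The 11 other members, mostly paralogs and retrocopies, spread more widely than the canonical genes. Their SD was 0.41, near the 0.44 across all genes, and their median difference was 0.02. They were also dimmer, with a median vehicle signal of 2502, and the spread between spots is larger for dim probes. *Rpl39l*, a paralog of *Rpl39* known from testis, had the largest difference of all members. Its signal was 157 with vehicle and 419.6 with IR-61, or −3.00 and −2.08 after scaling, so that it was 1.90-fold higher, a difference of 0.93 against an SD expected between spots of 0.23. Its range was 0.65 to 0.93 over the settings with a scaling and 1.41 without, and 1 probe read it. *Rpl39* itself, read by its brightest probe, had a difference of 0.03.

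*Rpl7l1*, a relative of *Rpl7* that works in the assembly of the large subunit and not in the finished ribosome, was the lowest member. Its signal was 659.9 with vehicle and 521.6 with IR-61, or −0.94 and −1.76 after scaling, a 1.77-fold lower value with a difference of −0.83 and an expected SD of 0.23. It was lower under each of the planned settings, between −0.91 and −0.74 with a scaling and at −0.34 without. *Rpl7* had a difference of −0.10.

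*Rps4l*, a relative of X-linked *Rps4x*, had signals of 2502 and 4402, or 0.99 and 1.31 after scaling, and was 1.25-fold higher. It was read by 1 probe, whose transcript RefSeq lists as a non-coding RNA. *Rps27l*, a paralog of *Rps27* known as a p53 target, had 29118 and 48076, or 4.53 and 4.76, with a difference of 0.24, within 1.2-fold, and *Rps27* had −0.15. *Rpl22l1*, the paralog of *Rpl22*, had 30802 and 45344 and a difference of 0.07, against −0.06 for *Rpl22*. *Rpl3l*, known from striated muscle, and *Rpl10l*, known from testis, were close to background. *Rpl3l* had signals of 23.6 and 34.5 and *Rpl10l* of 33.4 and 47.6, against a lowest signal well above background of 11.4 with vehicle and 14.5 with IR-61, and their differences of 0.06 and 0.02 lay far inside their expected SD of 0.50. *Rpl36al*, *Rpl32l*, *Rps23rg1* and *Rps19bp1* had differences of −0.04, −0.13, −0.06 and 0.00. The signals of *Rpl32l* were 72405 and 92931, and those of *Rpl32* 110709 and 131172. Whether the probe of *Rpl32l* also binds *Rpl32* mRNA was not tested. Set against its canonical relative, the paralog had the higher difference in 8 of 10 pairs, but between 29.7% and 83.9% of all measured genes, with a median over the pairs of 72.4%, lay above the same canonical relatives, so this count is not read as a trait of paralogs. In 5 pairs the difference passed 2 expected SDs between spots. These were *Rpl39l*, *Rps4l* and *Rps27l*, above their relatives by 0.90, 0.41 and 0.38, and *Rpl7l1* and *Rpl36al*, below theirs by 0.73 and 0.32 in size. Paralog and relative were read by different probes, and most pairs differed in brightness as well. Each relative was read by its brightest probe, and the expected SD leaves out disagreement between probes. The other probes of *Rpl39* had 0.18 and 0.65 and those of *Rpl36a* 0.24 and 0.01, so the gaps of *Rpl39l* and *Rpl36al* depend on the probe. All probes of *Rps27* lay between −0.15 and −0.08 and those of *Rpl7* between −0.21 and 0.01.

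Several members were read by more than 1 probe, and these probes did not always give the same difference. There were 51 members with 2 or more probes well above background, and the range of differences within a gene had a median of 0.20, against 0.37 for all 4160 genes with several such probes. In 8 of the 51 members, or 15.7%, the range was 0.5 or more, as in 36.4% of all such genes. Members were also brighter, with a median vehicle signal of 88807 against 549 for all measured genes. Bright probes have a smaller spread between spots, so the smaller range is not read as a trait of members. *Rpsa*, the laminin receptor and small subunit protein, was the 1 member with a range of 1 or more. Its 4 probes had vehicle signals of 113057, 47494, 10477 and 232 and IR-61 signals of 136174, 76734, 11003 and 492, with differences of −0.22, 0.20, −0.42 and 0.60. Its probes thus disagreed in direction, and the value of *Rpsa* depends on the probe chosen.

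The dim probes of a member often had a higher difference than its bright ones. The dimmest probe had the higher difference in 33 of the 51 members, or 64.7%, and in 33.9% of all genes with several probes. Where the dimmest probe was at least 8-fold dimmer than the brightest, this held for 16 of 18 members, with a median gap of 0.30, and for 29.3% of 1667 such genes, with a median gap of −0.31. Examples besides *Rpsa* were *Rpl14*, with −0.38 and 0.27, *Rpl39*, with 0.03 and 0.65, *Rps6*, with −0.30 and 0.22, and *Rpl22*, with −0.06 and 0.43 for the brightest and the dimmest probe. Where these probes lie in the transcripts, and whether they also bind transcripts of the many ribosomal protein pseudogenes, was not tested. Members and all genes were not matched for brightness in these counts. Among genes that are not members the median difference was −0.12 at a scaled log2 signal of 6 or more. It was 0.15 between 2 and 4 and 0.10 between 0 and 2. The part of this trend in the gaps between probes was not tested, so the gaps are not read as a trait of members. When each member was read by its dimmest probe, a choice made after seeing the data, 13 members were lower and 11 higher by 1.2-fold or more, against 11 and 3 with the brightest. Of all genes read by their dimmest probe 21.7% were lower and 29% higher.

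**Figure D3:**
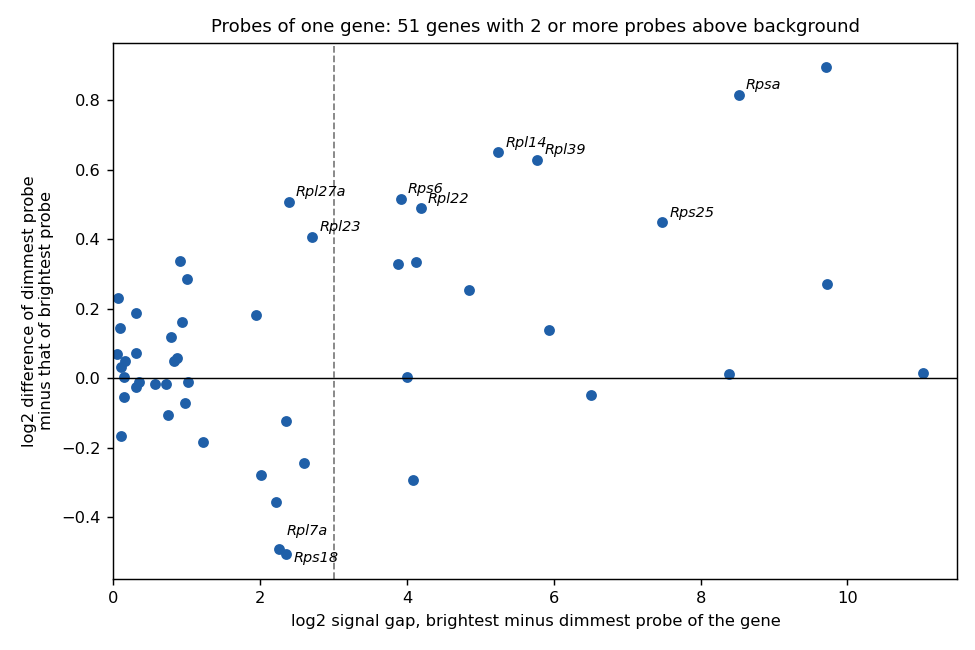
For the 51 members with 2 or more probes well above background, the log2 difference (IR-61 minus vehicle) of the dimmest probe minus that of the brightest, against the log2 gap in signal between them. The dashed line marks a gap of 8-fold, to the right of which 16 of 18 genes lie above 0.

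*Rpl23*, a large subunit protein that also binds MDM2, was the only member with a probe printed 10 times. This gives a spread between spots for that probe, which is not the brightest one that gave the gene its value. The 10 spots had a lowest, median and highest signal of 13794, 14219 and 15737 with vehicle and of 24793, 25616 and 28496 with IR-61. The scaled mean ± SD between spots was 3.52 ± 0.06 with vehicle and 3.87 ± 0.06 with IR-61, and the lowest spot with IR-61, at 3.81, lay above the highest with vehicle, at 3.64. On this probe *Rpl23* was higher by 0.36, while the other 2 probes, with 1 spot each and vehicle signals of 108892 and 111512, had differences of −0.05 and −0.33. The value of the brightest, −0.05, turned to 0.07 with quantile normalization and with the deposited log2 values. The spots of the dimmest probe therefore separated the arrays cleanly while the probes of the gene did not agree on a direction.

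**Figure D4:**
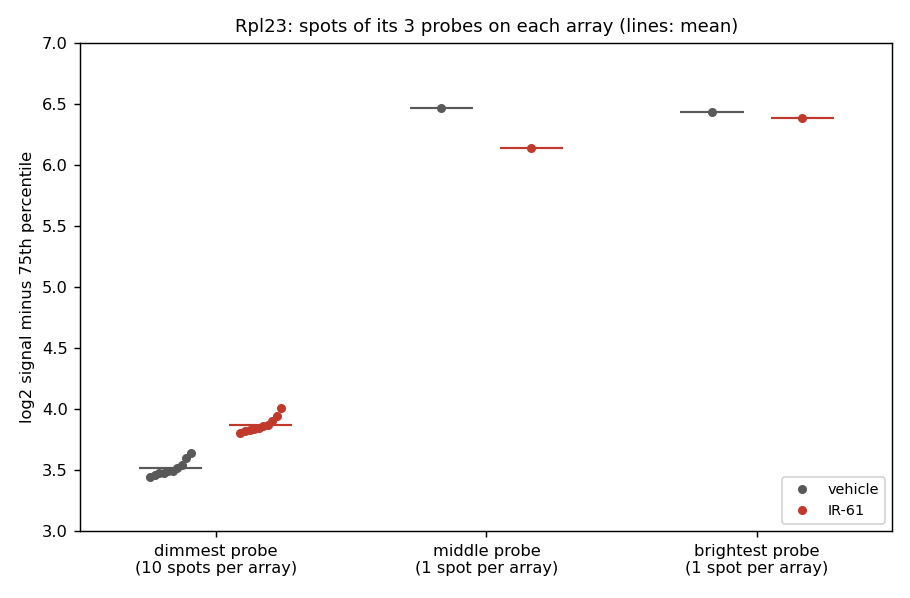
Scaled log2 signal of every spot of the 3 *Rpl23* probes with vehicle (grey) and IR-61 (red), with lines for the mean. The 10 spots of the dimmest probe do not overlap between the arrays and are higher with IR-61, and both brighter probes are lower with IR-61.

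Genes that share a function or a TOP start with the members gave a more mixed picture. Of 16 other genes known for TOP mRNAs, all measured, the median difference was −0.10, and 5 (31.2%) were lower and 1 (6.25%) higher by 1.2-fold or more, against the 17.5% and 31.8% of all genes. The lower ones were *Eef1g*, *Eef2*, *Eif3f*, *Pabpc1* and *Eif4b*, which encode elongation factors, initiation factors and the poly(A)-binding protein. *Eef1g* was the lowest at −0.61, with signals of 17058 and 15632, and *Nap1l1*, a histone chaperone, the highest at 0.64, with signals of 11026 and 24168. Among 46 genes of ribosome biogenesis the median was −0.05, and 14 (30.4%) were lower and 8 (17.4%) higher, from −0.88 for *Myc*, the transcription factor that drives this programme, to 0.55 for *Nop58*, of the small nucleolar RNPs that methylate ribosomal RNA. The mitochondrial ribosome, whose proteins are also made in the cytosol, had a median of 0.00 over 77 genes, with 15 (19.5%) lower, close to the share of all genes, and 8 (10.4%) higher, from −0.79 for *Mrps5* to 0.48 for *Mrpl3*. The SD across genes was 0.33 for the TOP list, 0.36 for ribosome biogenesis and 0.25 for the mitochondrial ribosome, each larger than the 0.14 of the canonical cytosolic genes. These lists differ from the canonical genes in brightness too, with median vehicle signals of 46989, 3323 and 6445.

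**Figure D5:**
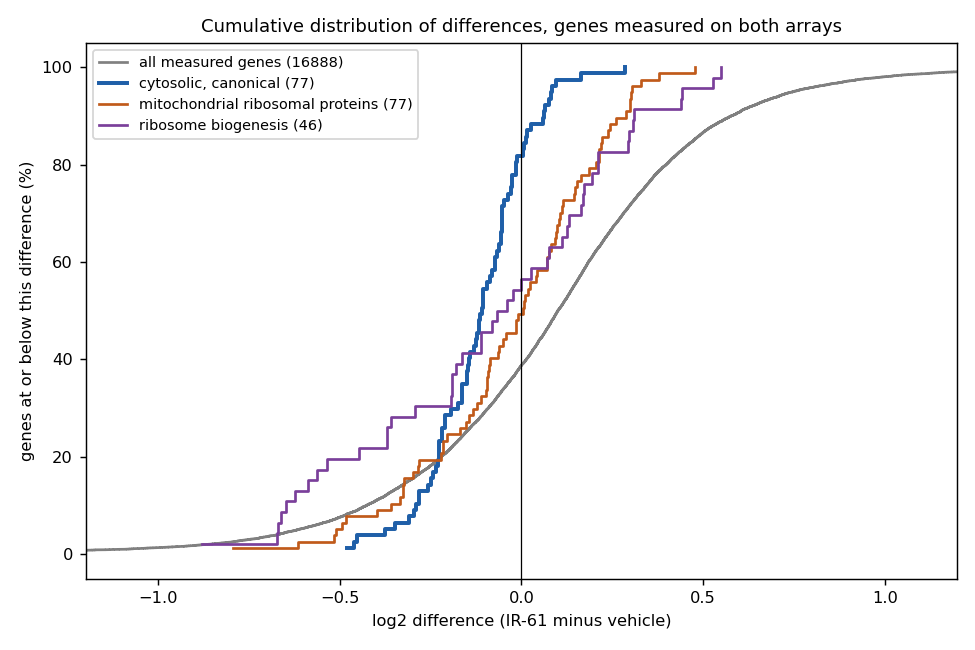
Cumulative share of genes (percent) against log2 difference (IR-61 minus vehicle) for the 77 canonical cytosolic ribosomal protein genes, 77 mitochondrial ribosomal protein genes, 46 ribosome biogenesis genes and all 16888 measured genes. The cytosolic curve is the steepest and lies between −0.48 and 0.28, while the curve of all genes reaches 50% at 0.10.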

How the data were processed

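The authors hybridized Cy3-labelled RNA of each culture to 1 array and deposited, per the file headers, the intensity of each spot from Agilent Feature Extraction 11.0.1.1 (11.0.0.1 per the labels), background-subtracted and detrended within the array but not scaled between arrays, with 0/1 flags. They also deposited a table of log2 values of unstated normalization. Its columns share their median, 7.15, and over 39419 probes they correlated with the log2 intensities at Pearson r = 0.9995 (vehicle) and 0.9988 (IR-61).

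Control spots and outlier spots (124 with vehicle, 139 with IR-61) were left out. Spots of 1 probe were averaged as log2 intensity, less the 75th percentile of their array, 10.30 for vehicle and 10.79 for IR-61. Probes were named by RefSeq accession without version through the GRCm38.p6 gene table, used for names because the array design is of another build, and 27224 were named. A gene took its brightest unsaturated probe and counted as measured where that probe was well above background on both arrays. The SD expected of a difference came from probes printed 10 times. It covers noise within an array only, and 1 array per condition limits the precision of every value. No test was run. Steps were tested on simulated arrays.

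The members and gene lists were chosen with earlier results of these data known. The genes named are the 8 lowest and the 8 highest canonical members, all other members, members printed 10 times or with probes differing by 1 or more, and the lowest and highest gene of each other list. Others were named after their values were seen. Values of some genes of these lists are not reported here. Alternatives were scaling by the median, by the 75th percentile over detected probes, by quantiles, by loess (span 0.3) and none, the deposited log2 values, normexp (offset 50) on median signals, outlier spots kept, means over probes, no filter on dim probes, canonical members only and probes as units. Before normexp, 4 spots of the IR-61 array whose local background exceeded their signal were given the median background. Normexp ran in limma 3.58.1 under R 4.3.3. All other steps ran in pandas 2.3.3 and numpy 2.4.6 under Python 3.11.15, loess in statsmodels 0.14.6 and plots in matplotlib 3.10.9.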

Additional observations from a re-analysis of the deposited data

How the results depend on the processing

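No paired analysis was possible because vehicle and IR-61 were hybridized once each, which leaves nothing to block on. The distance of the members' median from that of all genes was −0.21 to −0.06 on the log2 scale over the planned settings. Without scaling the members' median was 0.39 in place of −0.10, that of the large subunit 0.38 and that of the small subunit 0.38, with 1 member past 2-fold and 70 past 1.2-fold, 1 lower and 69 higher, where 3.06% of all genes were lower and 80.2% higher. Positive values then replaced negative ones for *Rps7* (0.0074), *Rps19* (0.027), *Rps2* (0.037), *Rpl14* (0.11), *Rpl19* (0.14), *Rpl4* (0.18), *Rps6* (0.19) and *Rps23* (0.20). Against 14 members past 1.2-fold, 11 lower and 3 higher, scaling by the median gave 25, 24 lower and 1 higher. Quantile normalization gave 9, with 6 lower, and the deposited log2 values gave 8, with 5 lower and a small subunit median of −0.011, and 20.8% of all genes lower and 25.8% higher. Counted over probes 34 passed, 22 lower and 12 higher, against 20.8% and 29.3% of all probes, and 138 lay below the median of all probes. Canonical members alone held 1 higher gene. The dimmest probe of each gene, a setting chosen after seeing the data, gave 24, with 11 higher. No depth or replicate error beyond spots was measured, and dim members such as *Rpl3l* and *Rpl10l* were limited by signal near background.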
